A study of Mus musculus with 8 samples.

Results

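Transcripts of the AMPA and kainate receptor subunit genes were measured by polyA RNA sequencing in the hippocampus of female C57BL/6 J mice. The study's methods give ventral hippocampal tissue as the source of the RNA, taken after behavioural tests of the animals. The members are the 9 genes that encode the pore-forming subunits, Gria1, Gria2, Gria3 and Gria4 for AMPA receptors and Grik1, Grik2, Grik3, Grik4 and Grik5 for kainate receptors. They were chosen by gene name from 29442 genes in the count table, and all 9 had at least 1 count and were tested. Mice aged 6 to 8 weeks received 21 days of abdominal subcutaneous injections of either DHEA (dehydroepiandrosterone, an androgen and neurosteroid, at 30 mg/kg/day) or sesame oil, the vehicle. The labels assign 4 libraries to DHEA (mice 3, 4, 7 and 11, after the number in each title) and 4 to sesame oil (mice 5, 9, 10 and 16). Nothing else in the labels says that each library came from a separate animal, so the p-values measure the spread between these libraries. Directions follow the deposited treatment labels, for which no independent check was made, and the study's own list of changed genes carries the opposite sign. Total counts were 35748416 to 38038361 in the DHEA libraries and 31483772 to 35418297 in the sesame oil libraries.

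AMPA and kainate receptors are tetrameric cation channels opened by glutamate. AMPA receptors carry most of the fast excitatory current at hippocampal synapses, and their number and subunit makeup change during synaptic plasticity. Kainate receptors act on both sides of the synapse, and in the hippocampus they are best known from mossy fibre synapses onto CA3 pyramidal cells. GluK1 to GluK3, encoded by Grik1 to Grik3, form channels alone, whereas GluK4 and GluK5, encoded by Grik4 and Grik5, need one of them as a partner.

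The 9 genes share 1 functional position in the pore loop, the Q/R site. It is shown here because Adarb1, an RNA editing enzyme described further on, is known to edit it in Gria2. In Gria2, and in part in Grik1 and Grik2, adenosine deamination of the transcript turns the glutamine codon into one read as arginine, which lowers calcium permeability. The windows of 33 coding bases below come from GENCODE vM21 transcripts (build GRCm38), 5′ to 3′ on the coding strand, with the codon of the site in capitals.
Gria1: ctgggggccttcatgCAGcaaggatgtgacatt
Gria2: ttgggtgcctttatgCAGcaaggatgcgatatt
Gria3: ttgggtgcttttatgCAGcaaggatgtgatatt
Gria4: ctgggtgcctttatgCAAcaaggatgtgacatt
Grik1: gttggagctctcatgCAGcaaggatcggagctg
Grik2: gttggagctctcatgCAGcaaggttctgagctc
Grik3: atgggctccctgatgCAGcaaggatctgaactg
Grik4: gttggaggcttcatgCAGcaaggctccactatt
Grik5: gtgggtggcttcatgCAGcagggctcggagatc
All 9 genes encode glutamine at the site in the genome, Gria4 by CAA and the other 8 by CAG. The AMPA windows matched one another at 28 to 31 of 33 bases, the kainate windows at 19 to 30, and windows of different families at 21 to 24. The Gria1 window lies in exon 11 of 16 at chr11:57243079-57243111 on the plus strand. The Gria2 window lies in exon 11 of 16 at chr3:80706896-80706928 on the minus strand, and that of Gria3 in exon 11 of 16 at chrX:41610250-41610282 on the plus strand. The Gria4 window lies in exon 12 of 17 at chr9:4464122-4464154 on the minus strand. The Grik4 window is in exon 16 of 21 at chr9:42547608-42547640, and that of Grik5 in exon 15 of 20 at chr7:25022482-25022514, both on the minus strand. In Grik1, Grik2 and Grik3 the window spans an exon junction, and the codon belongs to exon 13, 13 and 12 of the transcript used. The count files hold no bases of the reads, so editing itself was not analysed here.

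Levels between genes were compared on the FPKM scale (which divides the count by gene length and library total). Gria1 was the most abundant subunit gene with 161 ± 9.34 FPKM (mean ± SD over 8 libraries), followed by Gria2 with 87.0 ± 7.48 and Gria3 with 38.6 ± 2.89 FPKM. The ranges of these 3 genes did not overlap between neighbours. Grik5 stood at 15.8 ± 1.25 FPKM and Gria4 at 13.4 ± 1.6 FPKM. Their ranges overlapped, although Grik5 was above Gria4 in 8 of 8 libraries. Grik4 followed with 7.24 ± 0.65 FPKM. Grik2 (5.64 ± 0.35 FPKM) and Grik3 (5.54 ± 0.59 FPKM) could not be ordered, Grik2 being higher in 5 of 8 libraries. Grik1, at 2.45 ± 0.32 FPKM, was the lowest subunit gene, below the range of every other member.

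**Figure D1:**
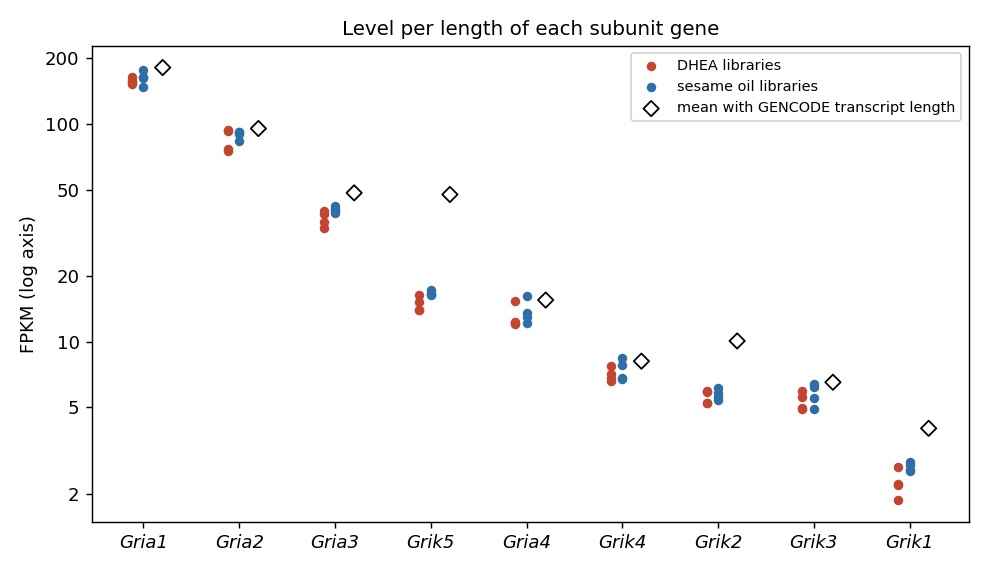
Level of each subunit gene in FPKM (log axis), with 4 DHEA and 4 sesame oil libraries as points and, as diamonds, the mean over 8 libraries computed with the longest protein-coding GENCODE transcript in place of the deposited gene length. Levels fall from 161 FPKM for Gria1 to 2.45 FPKM for Grik1, and the diamond of Grik5 lies at 47.4, beside the 48.3 of Gria3.

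This order rests on the length assigned to each gene. The deposited FPKM imply 11314 bases for Grik5, whereas its longest protein-coding GENCODE transcript has 3763 bases. With GENCODE lengths Grik5 (47.4 ± 3.77) was level with Gria3 (48.3 ± 3.62), and the mean ratio of Grik5 to Gria3 moved from 0.409 to 0.983. Grik2 then moved above Grik4 (10.1 ± 0.618 against 8.13 ± 0.732). The ratio of Gria1 to Gria2 was similar under the 2 sets of lengths, with a mean of 1.86 by the deposited FPKM and 1.92 by GENCODE lengths. Both sets make Gria2 much the longer gene. The deposited FPKM imply 6272 bases for Gria1 and 11370 for Gria2, and the GENCODE lengths are 5546 and 10371. In reads, both genes had nearly the same mean count, 35240 for Gria1 and 34497 for Gria2, so this ratio too rests on the lengths.

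Within the summed FPKM of the AMPA family, Gria1 made up 53.7% ± 2.38 (SD, n = 8), Gria2 29.0% ± 1.64, Gria3 12.9% ± 0.781 and Gria4 4.47% ± 0.577. Among kainate subunits Grik5 made up 43.0% ± 0.922, Grik4 19.8% ± 1.17, Grik2 15.4% ± 0.798, Grik3 15.1% ± 1.46 and Grik1 6.66% ± 0.529. The genes of the partner-dependent subunits, Grik4 and Grik5, thus summed to 1.58 to 1.89 times the FPKM of Grik1, Grik2 and Grik3, a ratio that again depends on the length of Grik5. With GENCODE lengths the kainate shares were 62.3% ± 0.793 for Grik5, 13.3% ± 0.667 for Grik2, 10.7% ± 0.669 for Grik4, 8.56% ± 0.871 for Grik3 and 5.23% ± 0.41 for Grik1, so that Grik2 and Grik4 changed places, whereas the AMPA shares kept their order, with 53.3% for Gria1. By the deposited FPKM every one of the 9 shares overlapped between the treatment groups.

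The ratio of Gria1 to Gria2 differed among the DHEA libraries more than between the groups. It was 2.15 in mouse 3 and 2.08 in mouse 4, but 1.67 in mouse 7 and 1.64 in mouse 11. Under sesame oil it was 1.84 in mouse 5, 1.77 in mouse 9, 1.94 in mouse 10 and 1.77 in mouse 16. The highest and the lowest ratios of the 8 libraries were therefore all in the DHEA group, and the group means (1.89 ± 0.266 and 1.83 ± 0.0795) were closer to each other than mice 3 and 4 were to mice 7 and 11.

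The question of the main comparison was whether the transcript levels of these subunits differed between the libraries labelled DHEA and sesame oil. All 9 estimates were below 0, from -0.22 for Grik1 to -0.01 for Grik2 in log2 fold change, but 0 of 9 passed an adjusted p of 0.05 in edgeR's quasi-likelihood test, and 0 of 9 with DESeq2. The background was 0% of the 27612 genes tested in edgeR, whereas DESeq2 called 184 genes. At an unadjusted p under 0.05, 1 of 9 members was lower, Grik5, and 0 were higher. Among all genes tested 4.49% were lower and 4.82% higher by that criterion, and among the 8969 genes counted at least as deeply as the lowest member (a mean of 508 reads) 9.08% were lower and 9.35% higher. A count of 1 in 9 is near this background. Of the same 8969 genes, 47.9% had an estimate below 0. The 9 estimates come from the same libraries and are not independent, and without mice 3 and 4 those of Gria2, Gria4 and Grik2 were above 0. No member reached an unadjusted p under 0.05 with a fold change of at least 2, a pair of criteria met by 1.6% of all genes tested. The 95% intervals of all 9 members lay within a 2-fold change in either direction, the widest being -0.45 to 0.00 for Grik1. The median log2 fold change was -0.06 over the 9 members and 0.01 over all genes tested. In whole tissue, fewer cells of a type and less RNA per cell cannot be told apart.

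**Figure D2:**
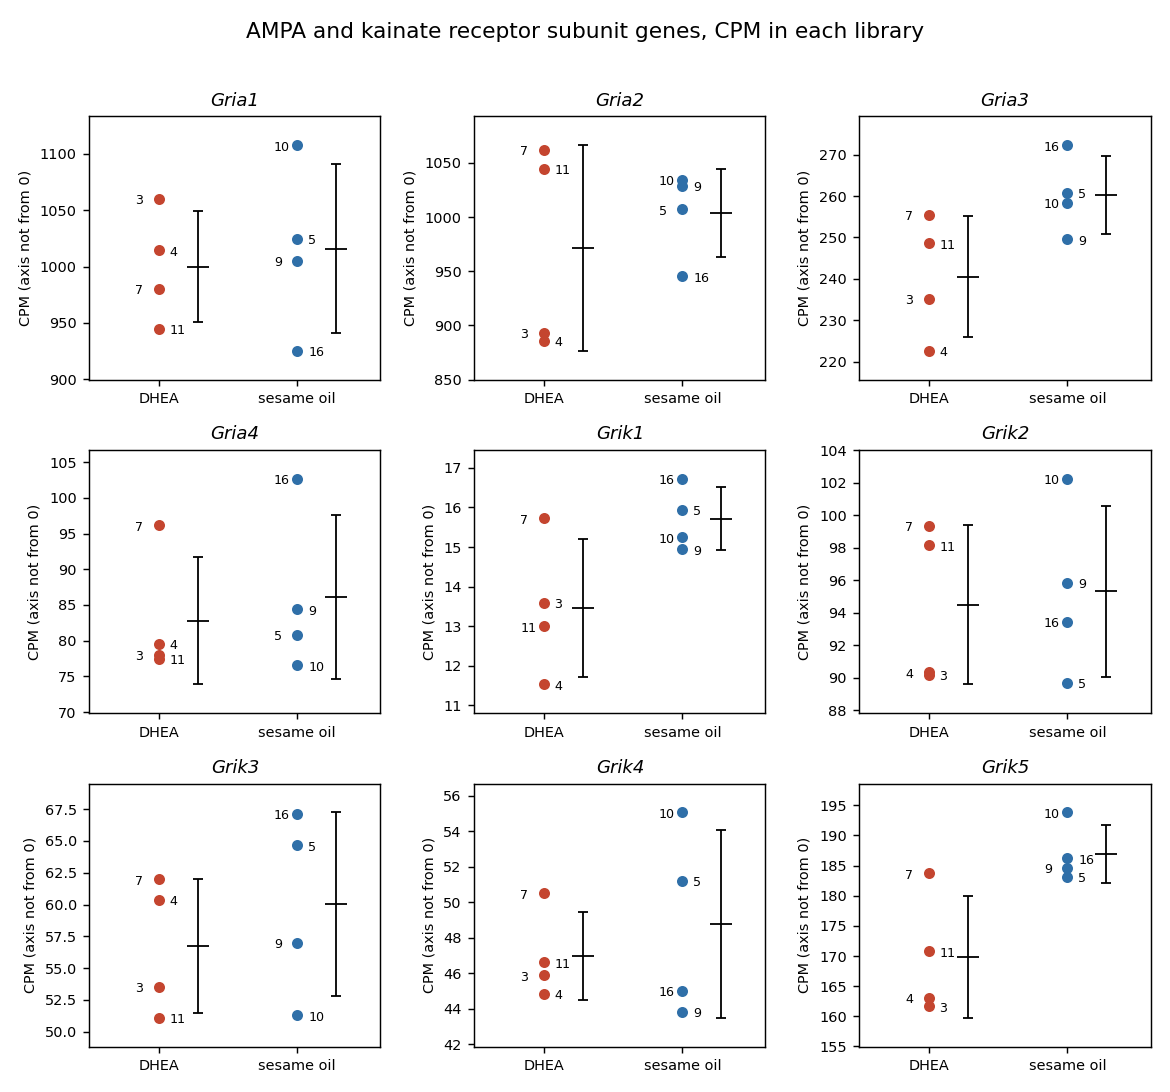
CPM of each subunit gene in every library, labelled by mouse number, with the group mean and SD (n = 4) beside the points. The axes do not start at 0, and the groups overlap in all 9 panels, with mouse 7 the DHEA library nearest to or within the sesame oil values for Gria3, Grik1 and Grik5.

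The AMPA subunit genes are described first, in CPM (counts scaled to a common library total after TMM normalization). Gria1, which encodes GluA1, the subunit inserted into synapses during potentiation, had 1060.0, 1014, 980.4 and 945 CPM in DHEA mice 3, 4, 7 and 11. In sesame oil mice 5, 9, 10 and 16 it had 1025, 1005, 1108 and 925 CPM. The DHEA values lay inside the range of the sesame oil values, and the log2 fold change was -0.02 ± 0.07 (SE), with a 95% interval from -0.16 to 0.12 (edgeR adjusted p = 0.921).

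Gria2 encodes GluA2, the subunit that sets calcium permeability. In DHEA mice 3, 4, 7 and 11 it had 893, 886, 1062 and 1044 CPM, and in sesame oil mice 5, 9, 10 and 16 it had 1007, 1029, 1035 and 945 CPM. Mice 3 and 4 were below every sesame oil library, while mice 7 and 11 were above every one. The difference of -0.05 ± 0.07 in log2 (interval -0.20 to 0.10, edgeR adjusted p = 0.82) therefore averaged 2 libraries below and 2 above. Without mice 3 and 4 it was 0.06 ± 0.05, and with the GC trend removed -0.14 ± 0.07 (unadjusted p = 0.0742).

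Gria3 encodes GluA3, which pairs with GluA2 in receptors that cycle constitutively. It had 235, 223, 256 and 249 CPM in the DHEA libraries (mice 3, 4, 7 and 11) and 261, 249.5, 258 and 272 CPM in the sesame oil libraries (mice 5, 9, 10 and 16). Only mouse 7 of the DHEA group lay above the lowest sesame oil value. The log2 fold change was -0.11 ± 0.06 (interval -0.24 to 0.01, edgeR unadjusted p = 0.0757, adjusted p = 0.582), and the exact permutation test over the 70 allocations of 4 against 4, whose smallest p is 0.0286, gave a two-sided p of 0.0571. Without mice 3 and 4 the log2 fold change was -0.05 ± 0.05, and with the trend on GC content removed it was -0.18 ± 0.06 (unadjusted p = 0.00855, adjusted p = 0.425).

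Gria4, which encodes GluA4, known from fast-spiking interneurons, had 78.0, 79.6, 96.2 and 77.5 CPM in DHEA mice 3, 4, 7 and 11 and 80.8, 84.4, 76.5 and 103 CPM in sesame oil mice 5, 9, 10 and 16. In each group 1 library stood high, mouse 7 and mouse 16, and the other 6 lay between 76.5 and 84.4 CPM. The difference was -0.06 ± 0.09 in log2 (interval -0.24 to 0.13, edgeR adjusted p = 0.841).

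Of the kainate subunit genes that form channels alone, Grik1 encodes GluK1. It had 13.6, 11.5, 15.7 and 13.0 CPM in DHEA mice 3, 4, 7 and 11 against 15.9, 14.9, 15.3 and 16.7 CPM in sesame oil mice 5, 9, 10 and 16. Mouse 7 alone of the DHEA group reached the sesame oil values. The log2 fold change of -0.22 ± 0.11 was the furthest from 0 among the members (edgeR unadjusted p = 0.054, adjusted p = 0.542, two-sided exact permutation p = 0.0857). It rested on 411 to 567 reads per library, the fewest of the 9 genes, and was -0.14 ± 0.11 without mice 3 and 4.

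Grik2, the gene of GluK2, a subunit of the mossy fibre receptor, had 90.2, 90.3, 99.3 and 98.2 CPM in DHEA mice 3, 4, 7 and 11 and 89.7, 95.8, 102 and 93.5 CPM in sesame oil mice 5, 9, 10 and 16. The DHEA libraries again formed a low pair (mice 3 and 4) and a high pair (mice 7 and 11), both inside the sesame oil range. Its log2 fold change was -0.01 ± 0.06, with an interval from -0.15 to 0.12 (edgeR adjusted p = 0.969), and was -0.10 ± 0.06 with the GC trend removed.

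Grik3, which encodes GluK3, had 53.5, 60.4, 62.0 and 51.1 CPM in DHEA mice 3, 4, 7 and 11 and 64.7, 57.0, 51.3 and 67.1 CPM in sesame oil mice 5, 9, 10 and 16. Both groups were spread over much the same range. The log2 fold change was -0.08 ± 0.09 (interval -0.26 to 0.10, edgeR adjusted p = 0.718).

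Of the partner-dependent subunits, GluK4 is encoded by Grik4, whose transcripts are known to be concentrated in CA3. It had 45.9, 44.9, 50.5 and 46.6 CPM in DHEA mice 3, 4, 7 and 11 and 51.2, 43.8, 55.1 and 45.0 CPM in sesame oil mice 5, 9, 10 and 16. The DHEA values lay within the sesame oil range, and the log2 fold change was -0.05 ± 0.08 (interval -0.22 to 0.11, edgeR adjusted p = 0.813).

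Grik5 encodes GluK5, the more widespread partner subunit. It had 162, 163, 184 and 171 CPM in DHEA mice 3, 4, 7 and 11 and 183, 185, 194 and 186 CPM in sesame oil mice 5, 9, 10 and 16. Mice 3, 4 and 11 lay below every sesame oil library, and mouse 7 lay just above the lowest of them. The log2 fold change was -0.14 ± 0.06 (interval -0.26 to -0.01), with an unadjusted p of 0.0319 and an adjusted p of 0.495 in edgeR and a two-sided exact permutation p of 0.0571. Without mice 3 and 4 it was -0.08 ± 0.05 (unadjusted p = 0.131), and with the GC trend removed -0.09 ± 0.06 (unadjusted p = 0.14). Grik5 overlaps the protein-coding gene Zfp574 in the RefSeq annotation of GRCm38, and the strand setting of the counting is not given in the sources used here. Zfp574 had 610 to 799 reads per library against 5813 to 6914 for Grik5, and its own log2 fold change was 0.03 ± 0.09 (edgeR unadjusted p = 0.787).

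No member had groups without overlap (0 of 9). Among these 8969 genes, 5.18% were lower without overlap and 4.73% higher without overlap.

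**Figure D3:**
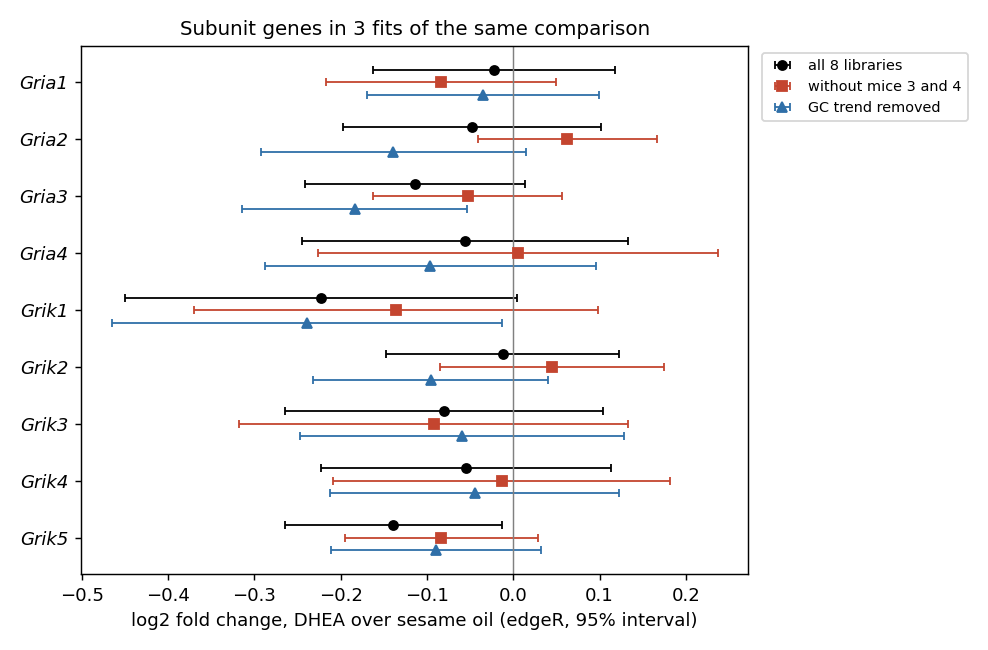
Log2 fold change of each subunit gene, DHEA over sesame oil, with 95% intervals from edgeR in 3 fits, using all 8 libraries, leaving out mice 3 and 4, and removing the trend on GC content. All 9 points of the fit on 8 libraries are below 0, whereas Gria2, Gria4 and Grik2 are above 0 without mice 3 and 4, and Grik5 has an interval that includes 0 in the other 2 fits.

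Summed over each family, AMPA subunit transcripts amounted to 289.2, 278, 307 and 296 FPKM in DHEA mice 3, 4, 7 and 11. In sesame oil mice 5, 9, 10 and 16 they came to 308.3, 308.2, 322 and 289.1 FPKM. The kainate sum was 33.1, 33.2, 38.6 and 35.3 FPKM in the same DHEA libraries and 38.5, 37.2, 39.2 and 38.0 FPKM in the same sesame oil libraries. Both sums overlapped between groups, with means of 292 ± 12.2 and 307 ± 13.4 FPKM for AMPA and 35.1 ± 2.58 and 38.2 ± 0.84 FPKM for kainate. In the kainate sum mouse 7 was again the DHEA library that reached the sesame oil values.

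Mice 3 and 4, both labelled DHEA, stood apart from the other 6 libraries on the first principal component of the genes with a mean of at least 10 reads, which held 33.4% of the variance. Their scores were -21.8 and -35.6, against 3.62 to 12.7 in the others. For the 9 members the median deviation from the 8-library mean was -0.09 in each of these mice on the log2 scale, whereas mouse 7, with the same label, was at 0.08. In mouse 3, 8 members and in mouse 4, 7 members were below their own mean, but so were 7 in mouse 11 and only 1 in mouse 7. Gria1 went the other way in mice 3 and 4, being above its mean in both. The share of counts from the 13 mitochondrial protein genes, a sign of RNA and tissue quality, was 7.87% in mouse 3, 9.34% in mouse 4, 7.58% in mouse 7 and 7.29% in mouse 11, against 6.37% to 7.23% under sesame oil. The rank correlation across genes between GC content and each library's deviation was -0.193 to -0.0294 in the DHEA libraries and 0.101 to 0.236 in the sesame oil libraries. These values moved with the treatment labels, and their part in the member differences was not tested beyond the fits given here.

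**Figure D4:**
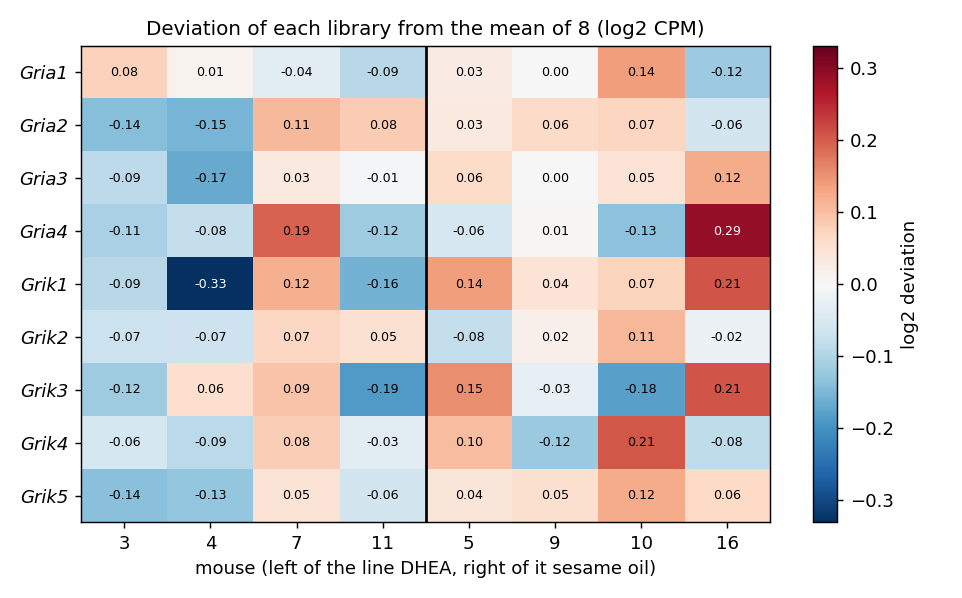
Deviation of each library from the 8-library mean of log2 CPM, for each subunit gene in rows and each mouse in columns, red above and blue below the mean. Mice 3 and 4 are below the mean for Gria2, Gria3, Gria4, Grik1, Grik2, Grik4 and Grik5 but not for Gria1, and mouse 16 holds the highest values of Gria3, Gria4, Grik1 and Grik3.

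Among themselves the members did not move as 1 block. After centring within the treatment groups, 25 of the 36 pairs of members had a positive Pearson r over the 8 libraries, with a median of 0.34 and a range from -0.69 to 0.86. The closest pair was Gria3 and Grik1 (r = 0.86), and Gria1 and Gria4 were the most opposed (r = -0.69). Gria2, Grik2 and Grik5 moved together, with r of 0.8 between Gria2 and Grik5 and 0.83 between Grik2 and Grik5. The values of mice 3 and 4 enter all these correlations. Over the other 6 libraries r was 0.32 between Gria2 and Grik5 and 0.66 between Grik2 and Grik5, with 22 of 36 pairs positive and a median of 0.24. Some pairs changed sign. Between Gria1 and Gria2 r moved from -0.15 to 0.87, then the closest pair. Between Gria2 and Gria3 it moved from 0.57 to -0.79, then the most opposed pair. For Gria3 and Grik1 r was 0.75 over these 6 libraries, and for Gria1 and Gria4 it was -0.66. All are descriptions over libraries that share their normalization, depth and GC trend.

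Over all genes with 100 or more reads on average, the gene whose centred pattern was most like that of Gria2 was Ocrl, a phosphoinositide phosphatase gene (r = 0.996), 1 of 185 genes with an r of at least 0.95. For Gria1 it was Grhl1 (r = 0.98), for Gria3 Slc25a35 (r = 0.99), for Gria4 Ppp1r26 (r = 0.97) and for Grik1 L1cam, a neuronal adhesion molecule gene (r = 0.99). The closest gene was Lrrfip2 for Grik2 (r = 0.97), the immediate early gene Nr4a2 for Grik3 (r = 0.97), Zfp933 for Grik4 (r = 0.98) and Adamts6 for Grik5 (r = 0.99). Each was the highest of 12779 genes compared over 8 libraries, mice 3 and 4 included.

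The genes that assemble, traffic and modify these receptors were described by 7 lists with 53 genes in all. At an unadjusted p under 0.05, 9 of 53 (17.0%) were lower and 3 (5.66%) higher in the DHEA libraries, 41 did not pass, and 0 passed the adjusted p in edgeR or with DESeq2. The background by the same criterion was 4.49% lower and 4.82% higher over all genes tested, and 9.08% and 9.35% over the 8969 genes counted as deeply as the members. Their median log2 fold change was -0.03. Without overlap between groups 5 of 53 were lower and 1 higher, beside 5.18% and 4.73% of the 8969 genes. At an unadjusted p under 0.05, 15 of 53 were lower and 0 higher without mice 3 and 4, beside 3.89% lower and 3.99% higher over all genes tested in that fit and 9.22% and 5.46% over the 8969 genes. With the GC trend removed 10 were lower and 1 higher, beside 4.64% and 3.97% over all genes and 9.53% and 7.11% over the 8969.

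Auxiliary subunits bind AMPA receptors and set their gating and surface delivery. Of 14 such genes 3 were lower and 0 higher at an unadjusted p under 0.05, with a median of -0.06. The most abundant was Cnih2, a cornichon homologue, with 167 ± 16.8 FPKM under DHEA and 168 ± 14.6 FPKM under sesame oil, and a log2 fold change of 0.02 ± 0.08, or -0.14 without mice 3 and 4 (unadjusted p = 0.0677). Shisa7, whose product also binds synaptic receptors, had 132, 126, 177 and 158 CPM in DHEA mice 3, 4, 7 and 11 and 177, 165, 193 and 179 CPM in sesame oil mice 5, 9, 10 and 16. Mice 3, 4 and 11 were below the sesame oil libraries and mouse 7 was within them. Its log2 fold change was -0.27 ± 0.09 (edgeR adjusted p = 0.357) and -0.10 without mice 3 and 4 (unadjusted p = 0.174). Prrt1 (SynDIG4, which keeps an extrasynaptic AMPA receptor pool) was at -0.20 ± 0.07 with an adjusted p of 0.336, and Shisa6 at -0.15 ± 0.07 with an adjusted p of 0.517. Shisa6 kept its estimate without mice 3 and 4 but did not pass (-0.15, edgeR unadjusted p = 0.0604). With the GC trend removed it passed at -0.16 (unadjusted p = 0.0326). Prrt1 passed in both fits, at -0.13 without mice 3 and 4 (unadjusted p = 0.0466) and at -0.15 with the GC trend removed (unadjusted p = 0.0333). Without mice 3 and 4, 4 of the 14 genes were lower.

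Biogenesis factors assemble AMPA receptors in the endoplasmic reticulum, and 2 of 6 were lower, with a median of -0.03. Porcn had 35.5, 37.2, 42.1 and 40.2 CPM in DHEA mice 3, 4, 7 and 11 and 44.3, 47.0, 50.2 and 43.2 CPM in sesame oil mice 5, 9, 10 and 16. The groups did not overlap, and the log2 fold change was -0.25 ± 0.08 (edgeR unadjusted p = 0.0041, adjusted p = 0.297). It was -0.17 without mice 3 and 4 (unadjusted p = 0.0365) and -0.23 with the GC trend removed (unadjusted p = 0.00743). Cpt1c, a brain carnitine palmitoyltransferase homologue of the same complexes, also had groups without overlap, at -0.15 ± 0.06 (adjusted p = 0.5), or -0.08 without mice 3 and 4 (unadjusted p = 0.161). Abhd12 was the most abundant of this list, at 90.1 FPKM and 0.09 ± 0.06. Of the 2 kainate receptor auxiliary subunits, Neto1 and Neto2, 0 passed. Neto2 was higher in FPKM (9.60 against 5.57) but had fewer reads than Neto1 (a mean of 2125 against 7613), so their order depends on the deposited lengths. It was at -0.14 ± 0.10 with all 8 libraries (unadjusted p = 0.18), but passed at -0.29 without mice 3 and 4 (unadjusted p = 0.0169) and at -0.23 with the GC trend removed (unadjusted p = 0.0254).

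Among 12 scaffold and trafficking genes 1 was lower, with a median of -0.04. This was Grip2, which binds the C termini of GluA2 and GluA3, with 8.05, 8.16, 11.1 and 9.39 CPM in DHEA mice 3, 4, 7 and 11 and 12.2, 11.7, 9.20 and 14.7 CPM in sesame oil mice 5, 9, 10 and 16. Its groups overlapped, and the log2 fold change was -0.38 ± 0.15 (edgeR adjusted p = 0.421), or -0.22 without mice 3 and 4 (unadjusted p = 0.194). Nsf, the ATPase that binds GluA2, was the most abundant at 286 FPKM and had a log2 fold change of -0.06 ± 0.06, or -0.13 without mice 3 and 4 (unadjusted p = 0.021), where 3 of the 12 genes were lower.

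Extracellular partners gather or span receptors at the synapse. Of 8, 2 were higher and 1 lower, with a median of -0.02. C1ql3, of the complement-like family that binds at mossy fibre synapses, had 210.2, 211, 178 and 186 CPM in DHEA mice 3, 4, 7 and 11 and 172, 163, 181 and 162 CPM in sesame oil mice 5, 9, 10 and 16. Mouse 7 lay below the highest sesame oil library, and the log2 fold change was 0.21 ± 0.07 (edgeR adjusted p = 0.322). Olfm3 was higher without overlap at 0.22 ± 0.09 (adjusted p = 0.484). Nptx1, a neuronal pentraxin that clusters AMPA receptors, was at -0.14 ± 0.06 (adjusted p = 0.503), and Olfm1, the most abundant at 232 FPKM, at -0.07 ± 0.07. With the GC trend removed Nptx1 was at -0.12 (unadjusted p = 0.0725) and Olfm3 at 0.12 (unadjusted p = 0.198). The list then had 1 gene higher and 0 lower. When mice 3 and 4 were left out, C1ql3 was at 0.10 (unadjusted p = 0.118) and Olfm3 at 0.14 (unadjusted p = 0.168). In that fit Nptx1 passed at -0.18 (unadjusted p = 0.0133) and Olfm1 at -0.19 (unadjusted p = 0.000885), and the list had 0 genes higher and 3 lower.

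Of the 3 RNA editing enzymes 1 was lower, with a median of -0.06. Adar, the ubiquitous adenosine deaminase, led in FPKM (24.6 against 7.44 for Adarb1) but not in reads (a mean of 5978 against 6225), so this order too depends on the deposited lengths. It had 164, 152, 167 and 167 CPM in DHEA mice 3, 4, 7 and 11 and 185, 179, 171 and 189 CPM in sesame oil mice 5, 9, 10 and 16. The groups did not overlap, and the log2 fold change was -0.16 ± 0.06 (edgeR unadjusted p = 0.0179, adjusted p = 0.421), or -0.12 without mice 3 and 4. Adarb1, the enzyme known to edit the Q/R codon of Gria2 shown in capitals above, was at -0.06 ± 0.06 (unadjusted p = 0.345) with overlapping groups.

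Kinases and phosphatases that act on the subunits numbered 8, of which 1 was higher and 1 lower, with a median of 0.01. Ppp3r1, the regulatory subunit of calcineurin, was at 0.19 ± 0.08 (edgeR adjusted p = 0.456) and at 0.05 without mice 3 and 4 (unadjusted p = 0.412). Camk2a, which phosphorylates GluA1 and was the most abundant at 670 FPKM, was at 0.02 ± 0.06.

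**Figure D5:**
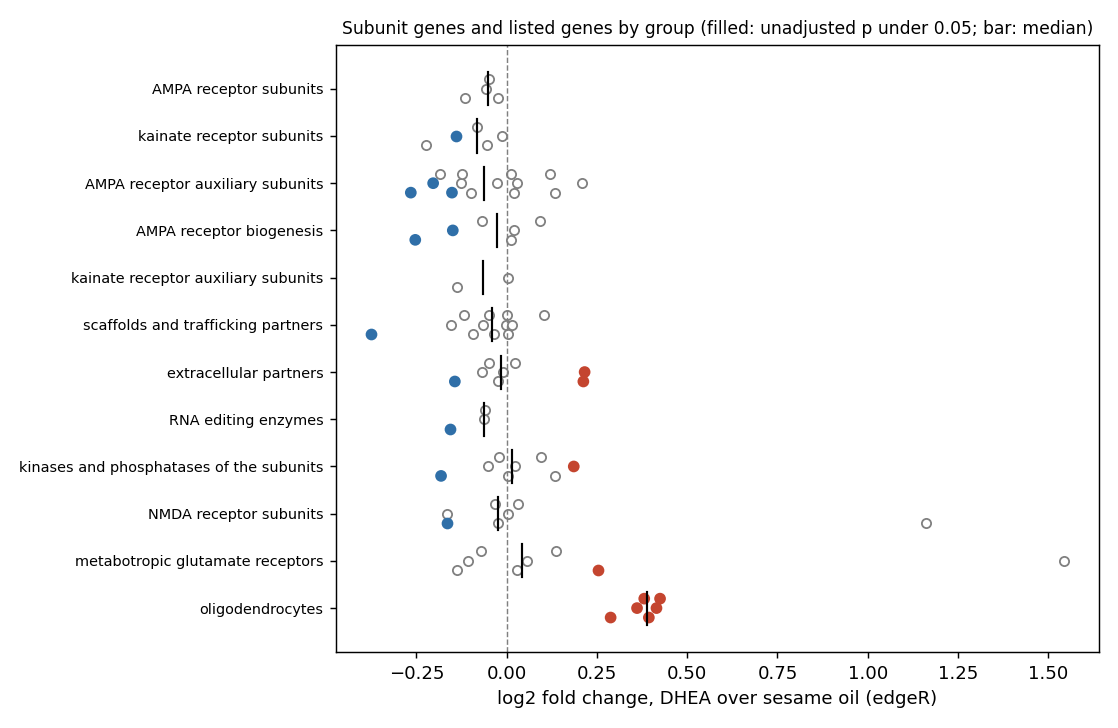
Log2 fold change (edgeR, DHEA over sesame oil) of the members, the 7 lists of partner genes, NMDA and metabotropic receptor genes and oligodendrocyte markers, with filled points for an unadjusted p under 0.05 and a bar at each median. Most lists lie around 0, the oligodendrocyte markers all lie to the right with a median of 0.39, and the open points beyond 1 are Grin3b and Grm6, each with a mean of under 2 reads per library.

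In the neighbouring receptor families, 1 of 7 NMDA receptor subunit genes and 1 of 8 metabotropic glutamate receptor genes passed an unadjusted p under 0.05. Grin1, the obligatory NMDA subunit, had 319.8, 282, 355 and 351 CPM in DHEA mice 3, 4, 7 and 11 and 362, 375, 364 and 365 CPM in sesame oil mice 5, 9, 10 and 16. The groups did not overlap, at -0.16 ± 0.07 (edgeR adjusted p = 0.486), with mouse 4 furthest down and a log2 fold change of -0.06 without mice 3 and 4 (unadjusted p = 0.205). Grm3, a metabotropic receptor of astrocytes and neurons, was at 0.25 ± 0.09 (adjusted p = 0.409), or 0.19 without mice 3 and 4 (unadjusted p = 0.0959). Grm5, the most abundant metabotropic receptor gene at 36.3 FPKM, was at 0.06 ± 0.07. The medians were -0.05 for AMPA, -0.08 for kainate, -0.02 for NMDA and 0.04 for metabotropic receptor genes, and differences between these families were not tested.

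The tissue label was set against markers. Neuronal Snap25 (715 FPKM), pyramidal cell Nrgn (615 FPKM), CA1 Wfs1 (29.3 FPKM), CA2 Pcp4 (185 FPKM), CA3 Cpne4 (25.1 FPKM), dentate granule cell Stxbp6 (21.98 FPKM) and interneuron Sst (146 FPKM) were the most abundant of their lists. None of the pyramidal, dentate, CA1, CA2 and interneuron markers passed an unadjusted p under 0.05 with all 8 libraries. When mice 3 and 4 were left out, 3 of 4 pyramidal markers were lower (Slc17a7 at -0.13, Neurod6 at -0.17 and Nrgn at -0.14) and the pyramidal median moved from -0.03 to -0.13. In that fit the CA1 marker Fibcd1 (-0.23), the CA2 marker Pcp4 (-0.22) and the interneuron marker Sst (-0.21) were lower, and the dentate marker Glis3 (0.29) and the CA2 marker Map3k15 (0.76) were higher. Of 5 neuronal markers 1 was lower, Rbfox3, which encodes NeuN. It had 219.9, 225, 213 and 225 CPM in DHEA mice 3, 4, 7 and 11 against 248, 241, 246 and 255 CPM in sesame oil mice 5, 9, 10 and 16, without overlap. Its log2 fold change was -0.16 ± 0.05 (edgeR adjusted p = 0.348, DESeq2 adjusted p = 0.0468). In edgeR it was -0.18 without mice 3 and 4 (unadjusted p = 0.00297) and -0.12 with the GC trend removed (unadjusted p = 0.0392). The neuronal list as a whole had a median of -0.02, and its summed level was 1231, 1190.2, 1172 and 1140 FPKM in the DHEA libraries against 1205, 1153, 1168 and 1291 FPKM in the sesame oil libraries. Of 5 CA3 markers 2 were higher, Bok at 0.24 ± 0.10 (adjusted p = 0.463) and Cpne4 at 0.16 ± 0.07 (adjusted p = 0.487). Leaving out mice 3 and 4, 0 of 5 were higher, Bok being at 0.08 (unadjusted p = 0.407) and Cpne4 at 0.07 (unadjusted p = 0.288).

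Oligodendrocyte markers moved with the labels. All 6 oligodendrocyte markers were higher at an unadjusted p under 0.05, with a median log2 fold change of 0.39, and 0 passed the adjusted p in edgeR but 3, Mbp and Cnp among them, with DESeq2. Mbp was at 0.39 ± 0.10, Mag at 0.29 ± 0.11, Mobp at 0.38 ± 0.11, Mog at 0.36 ± 0.11 and Cnp at 0.42 ± 0.10. The summed level was 1204, 1490.2, 1240 and 1235 FPKM in DHEA mice 3, 4, 7 and 11 and 982, 1208, 978 and 825 FPKM in sesame oil mice 5, 9, 10 and 16. Only mouse 9 reached the DHEA values. Of 4 precursor markers 1 was higher, Pdgfra at 0.25 ± 0.07, and of 5 astrocyte markers 3 were higher, Gfap at 0.26 ± 0.08, Gja1 at 0.17 ± 0.07 and Slc1a3 at 0.15 ± 0.07. P2ry12 of 5 microglial markers (0.37 ± 0.12) and Pecam1 of 4 endothelial markers (0.30 ± 0.10) were also higher. Whether these shifts had a part in the small negative differences of the subunit genes was not tested. Without mice 3 and 4, 5 of 6 oligodendrocyte markers had an unadjusted p under 0.05 and the list's median was 0.30. In the same fit 0 of 5 astrocyte markers passed, Gfap being at 0.15 (unadjusted p = 0.0561), and with the GC trend removed 1 of 5 passed. P2ry12 without mice 3 and 4 was at 0.08 (unadjusted p = 0.362), the microglial median was -0.015, and Pecam1 was at 0.25 (unadjusted p = 0.0585). Of the 4 endothelial markers 2 were above 0 and 2 below with all 8 libraries, with a median of 0.09. In the fit without mice 3 and 4 that median was -0.09, and Flt1 was lower at -0.13 (unadjusted p = 0.0395).

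Markers of adjoining tissue varied between libraries. The 4 choroid plexus markers, led by Ttr, summed to 3045, 49.1, 1539 and 2929 FPKM in DHEA mice 3, 4, 7 and 11 and 2222, 346, 1417 and 1568 FPKM in sesame oil mice 5, 9, 10 and 16, and 0 of 4 passed. Of 4 neocortex markers Fezf2 was lower at -0.39 ± 0.10 (edgeR adjusted p = 0.245, DESeq2 adjusted p = 0.0446). In edgeR it was at -0.40 without mice 3 and 4 (unadjusted p = 0.00247) and at -0.37 with the GC trend removed (unadjusted p = 0.00201). The neocortex list had 2 markers above 0 and 2 below, with a median of -0.01, or 0.07 without mice 3 and 4. Of 6 thalamus markers, led by Zic1 at 5.96 FPKM, 0 passed. Of 5 anterior pituitary markers 3 (Prl, Gh and Pomc) were lower in the DHEA libraries at an unadjusted p under 0.05. Their edgeR adjusted p-values were 0.0647, 0.0818 and 0.471. Pomc, at -1.16 ± 0.48, overlapped between groups, with 0.513 CPM in sesame oil mouse 5 and 4.93 CPM in sesame oil mouse 10. The list summed to 0.765 to 0.882 FPKM in the DHEA libraries. Under sesame oil it summed to 1.15 FPKM in mouse 5, 6.32 in mouse 9, 29.3 in mouse 10 and 2.42 in mouse 16. Prl, the most abundant, was at 0 in mouse 4, and Gh was at 0 in mice 3, 4 and 7. The part of these tissues in the subunit values was not tested.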

How the data were processed

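The authors trimmed reads (fastp), aligned them with HISAT2 to GRCm39 and deposited whole-number read counts per gene from HTSeq (names from the submitters' processing notes, versions not given in the sources used here). The deposited FPKM are these counts divided by the library total and 1 length per gene, equal within 0.1% for 25234 of 25234 genes, and hold no further measurement. Counts were analysed with edgeR 4.0.16 (R 4.3.3) by TMM factors, a prior count of 0.125 and its quasi-likelihood test over 27612 genes (those of 29442 with any count), with Benjamini-Hochberg adjustment over all of them. The SE is the log2 fold change divided by the square root of F. Single genes were also tested by an exact permutation test.

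Alternatives were DESeq2 1.42.0, limma 3.58.1, other filters, normalizations and prior counts, thinning, a GC correction and leaving out libraries. The named genes were the members, the most abundant gene of each list and every listed gene with an unadjusted p under 0.05 (some listed genes are not reported here), and the gene most like each member. Adarb1, Neto1, Slc17a7, Neurod6, Fibcd1, Glis3, Map3k15, Flt1, Grin3b, Grm6 and Zfp574 were added after values were seen. The members and lists were chosen with earlier results of these data known. The study's list of changed genes was read only for its sign. No 2 libraries of a group agreed within sampling noise. The edgeR, DESeq2 and limma fits were checked on simulated data with known changes, all larger than the difference of any member. The simulation held neither the GC trend nor the separation of mice 3 and 4. It therefore does not cover differences as small as those of the members.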

Additional observations from a re-analysis of the deposited data

Results flagged for a closer look

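Of 26 sets of 4 libraries examined for 1 value far from the other 3, 1 was picked out. Gria4 in DHEA mouse 7 (96.2 CPM, the other 3 at 77.5 to 79.6 CPM) had a gap to its neighbour of 0.888 of the group's range. Chance gives about 1 in 20 such sets, or 1.3 of 26.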

How the results depend on the processing

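Of 180 member values under 20 alternatives, 150 kept their direction and their side of an unadjusted p of 0.05, and no member had an adjusted p under 0.05 in any of them (smallest 0.167, Grik5 without mouse 7). The member count at an unadjusted p under 0.05 was 1 (Grik5) in the main analysis. It was 2 with DESeq2, RLE factors, robust moderation, either limma analysis of log2 FPKM and the GC correction, which called Gria3 and Grik1 in place of Grik5. It was 3 (Gria3, Grik1 and Grik5) with a minimum of 10 counts or edgeR's own filter. It was 0 without mice 3 and 4 and without mice 9 and 11, whose records carry later numbers, 2 alternatives chosen after seeing the data, and 0 to 3 when 1 library was left out, with 0 without mouse 3, 4, 9 or 10 and 3 without mouse 7. Genes with an adjusted p under 0.05 numbered 0 in the main analysis (2571 at an unadjusted p), 184 with DESeq2, 4 with robust moderation, 1 without mice 3 and 4, 38 without mice 9 and 11, and 0 to 93 without 1 library, the most without mouse 7. The cause was not tested.

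Of the member values, 10 changed sign, to values of at most 0.063. Without mice 3 and 4 the log2 fold change was 0.063 for Gria2, 0.0057 for Gria4 and 0.045 for Grik2. Without 1 library, Gria1 ranged from -0.072 to 0.022, Gria4 from -0.14 to 0.032, Grik2 from -0.040 to 0.023 and Grik4 from -0.10 to 0.0089. Grik5 ranged from -0.18 to -0.12 and passed in 4 of 8. The ratio of Grik5 to Gria3 was 0.983 with GENCODE lengths against 0.409. Mean counts of the members were at least 508, and Grik1, the gene with the fewest reads, had the largest SE (0.108).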
